A study of Mus musculus with 10 samples.

Results

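Of the 9 genes listed for nephric duct identity and Ret signalling (Pax2, Pax8, Lhx1, Sall1, Emx2, Gata3, Ret, Gfra1 and Gdnf), 8 were measured in cultured mouse Wolffian ducts, among 19505 named genes and 22206 probe sets in all. The members were chosen by gene symbol in the platform's annotation, and each of the 8 had 1 probe set. No probe set carried the symbol Gata3, which is not analysed here. Ducts were dissected at 16.5 days post-coitum and grown for 72 h at an air-liquid interface, and their RNA was hybridised to Affymetrix arrays. The groups were 4 cultures with 0.5 µM SAG, an agonist of the hedgehog transducer Smoothened, 3 cultures with 25 µM cyclopamine, a Smoothened inhibitor, and 3 control cultures in medium, labelled vehicle. The series calls them biological replicates. Strain, sex and genotype are not given in the labels, and it is not stated whether the control medium held the compounds' solvent. The sample titles read pronephros, whereas the protocols describe Wolffian duct.

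The Wolffian duct is the epithelial tube that grows through the intermediate mesoderm, gives off the ureteric bud and, in males, forms the epididymis and vas deferens. Pax2, Pax8, Lhx1, Gata3 and Emx2 are transcription factors that set up and maintain this epithelium, and Sall1 is a zinc finger factor of the metanephric mesenchyme and of several duct derivatives. Gdnf is a ligand secreted by the surrounding mesenchyme. It binds the membrane-anchored co-receptor Gfra1, and the pair activates the receptor tyrosine kinase Ret on duct cells, which guides duct growth and budding. Hedgehog ligands made by urogenital epithelia act mainly on the stroma around them.

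All values are log2 signals as deposited, and changes are differences of group means from limma, tested at an adjusted p of 0.05 over 22206 probe sets. The hedgehog targets Gli1, Ptch1 and Hhip each rose with SAG and fell with cyclopamine against vehicle, the directions their labels give. The Gli1 rise with SAG ended without any single array other than vehicle replicate 1 or cyclopamine replicate 1 or 2 (adjusted p 0.053 to 0.204). The 16 duct epithelium markers (Epcam, Cdh1, keratins, claudins and others) all had a named probe set. Their mean signal was 10.28 to 11.07 on SAG arrays, 12.39 to 13.42 on cyclopamine arrays and 11.39 to 12.31 on vehicle arrays. The mean of 11 mesenchyme markers was 14.87 to 15.05 on SAG arrays, 13.56 to 13.83 on cyclopamine arrays and 14.66 to 14.72 on vehicle arrays. Cyclopamine replicate 2 stood apart from its group on the second principal component (-51.7, against 13.0 and 13.6), and SAG replicate 1 carried signal of gonad and adrenal markers that its group otherwise lacked (list mean 6.67, against 5.05 to 5.39). On vehicle replicate 3 that list mean was 5.64, against 4.84 and 5.04 on the other vehicle arrays. Calls of members that depend on either of the 2 arrays that stand apart are given with and without it.

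Markers listed for other cell types also differed with cyclopamine, and which cells of these cultures carried them was not tested. Of 10 smooth muscle markers 8 fell, among them Cnn1, calponin (-5.04 ± 0.20, limma adjusted p = 1.56e-06), and their mean was 11.44 to 11.65 on SAG arrays, 9.06 to 9.48 on cyclopamine arrays and 11.74 to 12.29 on vehicle arrays. All 8 endothelium markers had a negative difference (median -1.09, beside 0.02 over all probe sets), and 1, the VEGF receptor Kdr, fell. That count was 0 without any one vehicle array or cyclopamine replicate 3, and 2 without cyclopamine replicate 2. Of 12 nephron and kidney markers 2 rose, the endocytic receptors Lrp2 (1.51 ± 0.38, limma adjusted p = 0.0456) and Cubn (0.96 ± 0.13, adjusted p = 0.0037). Cubn signal was low, 4.68 to 4.78 with vehicle and 5.47 to 5.81 with cyclopamine, where the lower quartile of probe set means was 5.195. The Notch ligand Jag1 fell (-0.95 ± 0.19, adjusted p = 0.0178). Without vehicle replicate 2 the list's count of 3 calls was 1. Of 11 mesenchyme markers 6 fell. Among all probe sets 2.17% rose and 2.95% fell with cyclopamine. With SAG against vehicle 0 of each of these 4 lists passed, where single arrays left out gave at most 1. The part of these cell types in the members' differences was not tested.

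No member passed with SAG: 0 of 8 were called by limma, beside 0.73% of all probe sets (0.45% higher and 0.279% lower). Cyclopamine raised 2 of 8 (Pax2 and Pax8), beside 5.12% of all probe sets (2.17% higher and 2.95% lower). SAG against cyclopamine, the widest contrast, gave 3 of 8, all lower with SAG (Pax2, Pax8 and Emx2), beside 11.3% of all probe sets (5.42% higher and 5.92% lower). Groups of arrays did not overlap for 4, 4 and 3 members in these contrasts, where 12.9% (6.25% higher and 6.63% lower), 23.1% (11.2% and 11.9%) and 21.2% (10.7% and 10.5%) of all probe sets had no overlap. In SAG against vehicle, 7 of 8 differences were negative, with a median of -1.05 beside 0.01 over all probe sets. Both contrasts against vehicle share the vehicle arrays.

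**Figure D1:**
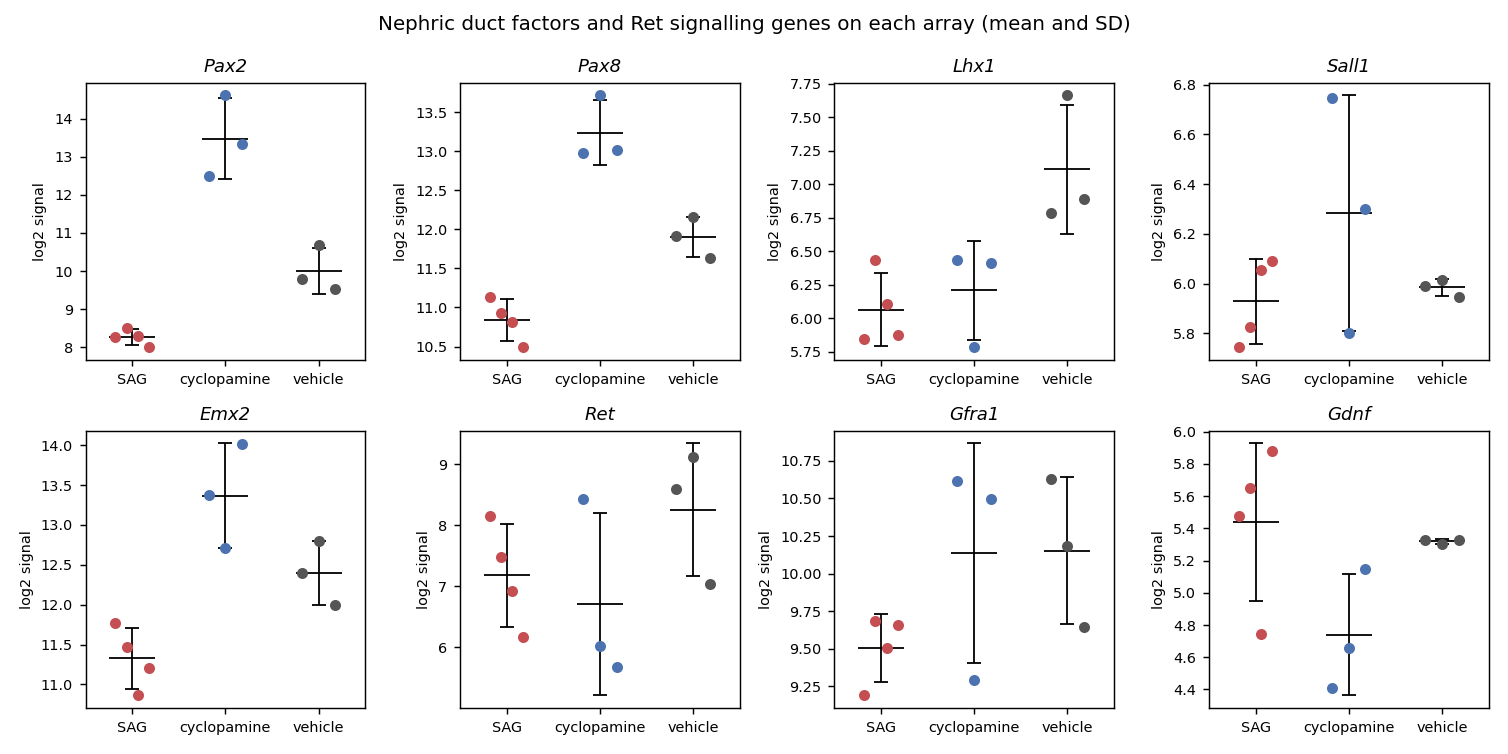
Log2 signal of the 8 measured members on each array (points), with the group mean and SD (bars), for SAG, cyclopamine and vehicle cultures. Pax2 and Pax8 form 3 separate levels, lowest with SAG and highest with cyclopamine, while Ret spreads widely inside each group, from 5.68 to 8.42 on cyclopamine arrays.

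Pax2 and Pax8, paired-box factors that act together in forming the nephric duct, gave the clearest graded pattern. The 250 bases before an annotated RefSeq start (GRCm38.p6) of each called member follow, since Pax2, Pax8 and Emx2 are the members that passed. CCAAT boxes and GC boxes (CCGCCC), or their reverse complements, are in capitals. Pax2 has 2 further annotated starts, and which one these ducts used is not known from the arrays.
Pax2, chr19:44746351-44746600, plus strand: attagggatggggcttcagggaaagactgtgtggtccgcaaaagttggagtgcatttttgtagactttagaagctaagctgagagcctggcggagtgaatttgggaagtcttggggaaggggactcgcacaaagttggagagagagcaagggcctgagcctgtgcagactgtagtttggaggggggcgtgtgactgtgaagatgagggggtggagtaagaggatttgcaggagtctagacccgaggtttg
Pax8, chr2:24475600-24475849, minus strand: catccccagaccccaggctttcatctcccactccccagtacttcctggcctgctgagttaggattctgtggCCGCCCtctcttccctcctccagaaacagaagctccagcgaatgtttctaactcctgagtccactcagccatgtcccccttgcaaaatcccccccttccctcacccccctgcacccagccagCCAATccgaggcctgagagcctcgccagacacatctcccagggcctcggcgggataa
Emx2, chr19:59458440-59458689, plus strand: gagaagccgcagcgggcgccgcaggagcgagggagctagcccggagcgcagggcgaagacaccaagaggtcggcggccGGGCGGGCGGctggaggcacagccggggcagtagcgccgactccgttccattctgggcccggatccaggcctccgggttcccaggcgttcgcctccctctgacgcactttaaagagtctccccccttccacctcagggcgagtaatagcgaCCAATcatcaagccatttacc

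Pax2 signal was 8.26, 8.50, 8.30 and 8.003 on the 4 SAG arrays, 12.49, 14.61 and 13.33 on the 3 cyclopamine arrays, and 9.79, 10.68 and 9.53 on the 3 vehicle arrays. Every cyclopamine array lay above every vehicle array, and every SAG array below them. Cyclopamine raised Pax2 by 3.48 ± 0.45 (SE), or 11.1-fold (limma adjusted p = 0.00264). With SAG, the difference from vehicle was -1.73 ± 0.42 and did not pass (adjusted p = 0.115). SAG against cyclopamine gave -5.21 ± 0.42, or 37.0-fold lower (limma adjusted p = 4.11e-05). Cyclopamine replicate 2, the array that stood apart, had the highest Pax2 signal of all 10. Without it, the SAG difference passed (adjusted p = 0.0182). In bulk tissue, a change in the number of cells of a type and a change in RNA per cell cannot be told apart.

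Pax8 signal was 11.14, 10.93, 10.82 and 10.49 with SAG, 12.98, 13.71 and 13.02 with cyclopamine, and 11.91, 12.15 and 11.64 with vehicle. The 3 groups again did not overlap. Cyclopamine raised Pax8 by 1.34 ± 0.23 (limma adjusted p = 0.00974), and SAG against cyclopamine gave -2.39 ± 0.22, or 5.25-fold lower (adjusted p = 8.1e-05). The difference of SAG from vehicle, -1.06 ± 0.22, fell just short (adjusted p = 0.0612) and passed without cyclopamine replicate 2 (adjusted p = 0.0197).

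Emx2, a homeobox factor needed to keep the duct epithelium and to form the urogenital tract, followed the same order with some overlap. Signals were 11.77, 11.47, 10.86 and 11.20 with SAG, 13.37, 12.71 and 14.02 with cyclopamine, and 12.39, 12.80 and 12.00 with vehicle. All SAG arrays lay below all vehicle arrays, whereas cyclopamine replicate 2 (12.71) lay below the highest vehicle array. SAG against cyclopamine was -2.04 ± 0.31, or 4.12-fold lower (limma adjusted p = 0.00181). Neither compound alone passed against vehicle (-1.07 ± 0.31 with SAG, adjusted p = 0.196, and 0.97 ± 0.34 with cyclopamine, adjusted p = 0.14). Cyclopamine passed for Emx2 once its replicate 2 was left out (adjusted p = 0.0364).

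**Figure D2:**
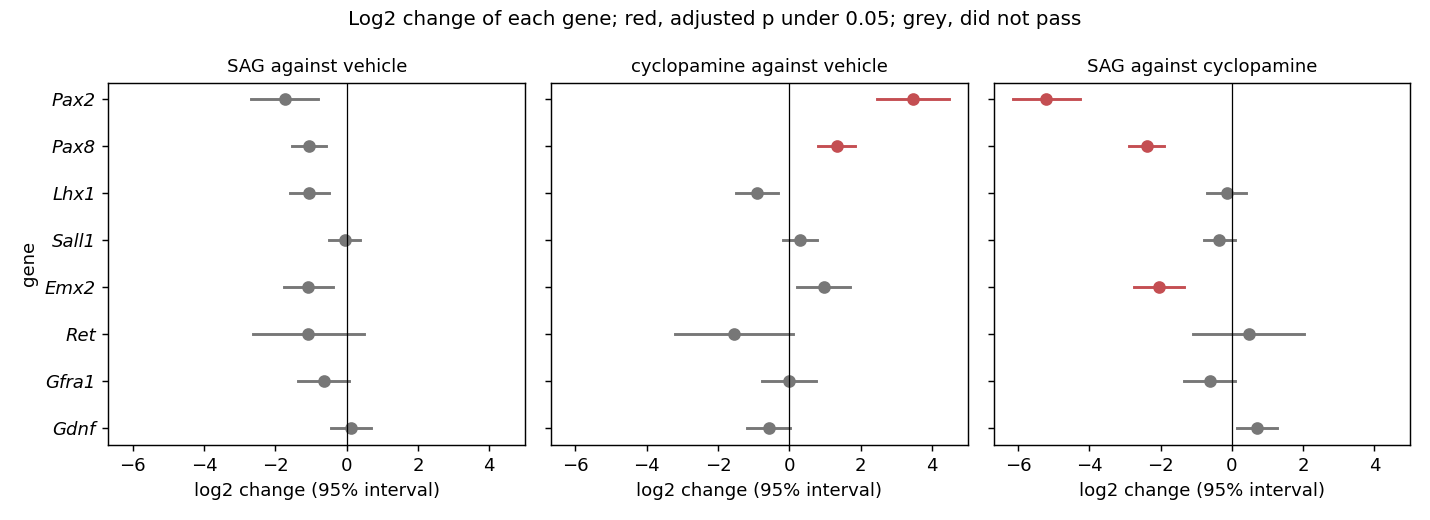
Log2 difference of each measured member in the 3 contrasts, with its 95% interval from limma (bars), and red where the adjusted p was under 0.05. Pax2, Pax8 and Emx2 lie to the left in SAG against cyclopamine, with Pax2 farthest at -5.21, and the Ret intervals are the widest.

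Because the duct epithelium markers differed between groups in the same direction, each member was also set against the mean of these 16 markers on its own array. Signals of different probe sets cannot be compared, so an offset from the markers has no meaning as a level and serves only to compare arrays. Pax2 remained higher with cyclopamine than with vehicle by 2.31 log2 units, with no overlap between the arrays. The offset was largest on cyclopamine replicate 2, at 2.22, against -0.55 and -0.08 on the other cyclopamine arrays and -1.86 to -1.63 on vehicle arrays. For Pax8 the difference from vehicle shrank to 0.17 with cyclopamine and 0.06 with SAG, and for Emx2 to -0.20 and 0.04, all with overlapping arrays. With SAG, Pax2 differed from vehicle by -0.62, Sall1 by 1.06 and Gdnf by 1.23 on this scale, with no overlap. The markers themselves were lower with SAG. Before subtraction Sall1 differed by -0.06 and Gdnf by 0.12 (limma adjusted p = 0.952 and 0.91), so neither was higher with SAG in its own signal past the threshold. With 3 arrays against 3, an exact two-sided permutation test cannot go below 0.1, and with 4 against 3 not below 0.0286. Sall1 (-0.87), Ret (-2.72), Gfra1 (-1.19) and Gdnf (-1.75) were lower relative to the markers with cyclopamine than with vehicle, with no overlap, while the markers themselves were higher there. Of 24 such comparisons 0 passed after adjustment (lowest adjusted exact permutation p = 0.114). Those of 3 arrays against 3 could not pass. Those of 4 against 3 could pass only if most of them reached the smallest p, so this count decides nothing.

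**Figure D3:**
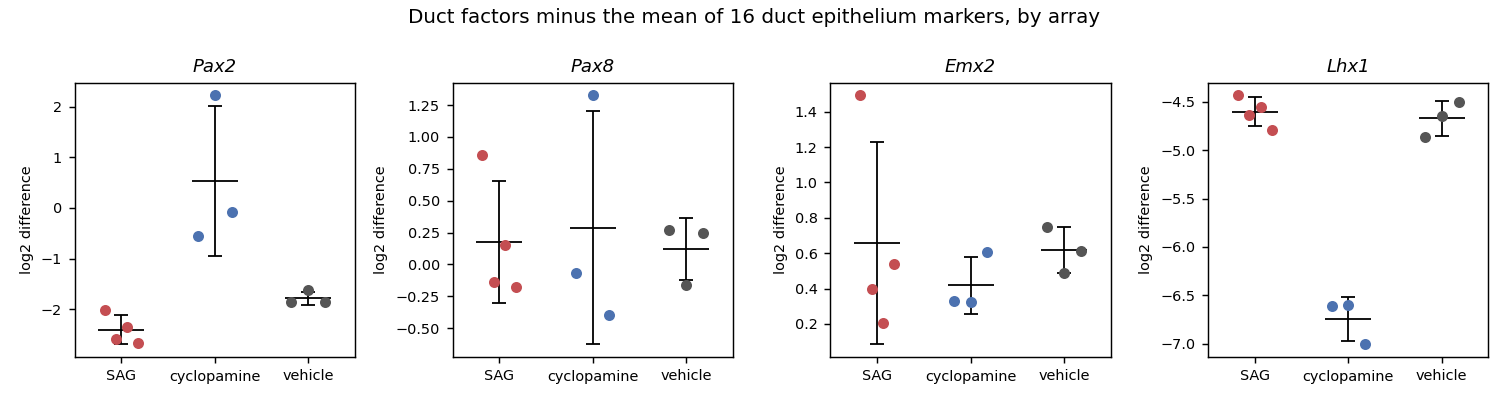
Log2 signal of Pax2, Pax8, Emx2 and Lhx1 minus the mean of the 16 duct epithelium markers on the same array (points), with group means and SD (bars). Pax8 and Emx2 overlap between groups on this scale, Pax2 stays highest on cyclopamine arrays, and Lhx1 is lowest there.

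Lhx1, a LIM homeobox factor required to extend the nephric duct, had its highest signal on the vehicle arrays. Its signal was 5.84, 6.44, 6.10 and 5.87 with SAG, 6.43, 5.78 and 6.41 with cyclopamine, and 6.78, 7.66 and 6.89 with vehicle. Both treated groups lay below every vehicle array and overlapped each other. The differences were -1.05 ± 0.25 with SAG (adjusted p = 0.106) and -0.90 ± 0.27 with cyclopamine (adjusted p = 0.0845), so neither passed. Relative to the duct epithelium markers, Lhx1 differed from vehicle by -2.07 with cyclopamine, with no overlap, and by 0.06 with SAG, with overlap. Sall1 passed in no contrast, with signals of 5.74 to 6.09 with SAG, 5.80 to 6.75 with cyclopamine and 5.95 to 6.02 with vehicle. Its differences from vehicle were -0.06 with SAG and 0.30 with cyclopamine (adjusted p = 0.952 and 0.495), and the compounds differed by -0.36 (adjusted p = 0.323). The 95% interval for SAG against vehicle ran from -0.49 to 0.38. Without cyclopamine replicate 2, Sall1 passed in SAG against cyclopamine (limma adjusted p = 0.0422). It did not pass without SAG replicate 1 and cyclopamine replicate 2 together (adjusted p = 0.0809). Its mean signal stood at the 36.4th percentile of all probe sets.

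Ret, the GDNF family receptor kinase of the duct tip and also of sympathetic and enteric neurons, spread widely inside every group. Its signal was 8.15, 7.48, 6.92 and 6.17 with SAG, 8.42, 6.03 and 5.68 with cyclopamine, and 8.60, 9.13 and 7.04 with vehicle. The 3 groups overlapped, and the residual SD, 1.13, stood at the 99.4th percentile of all probe sets. No contrast passed: the differences were -1.08 ± 0.71 with SAG, -1.55 ± 0.75 with cyclopamine and 0.47 ± 0.71 for SAG against cyclopamine (adjusted p = 0.645, 0.302 and 0.762).

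Within groups, Ret varied with the mean of the neuron and glia markers, though not with each of them. Dbh, an enzyme of noradrenaline synthesis, read 11.21, 9.48, 9.66 and 7.11 with SAG, 11.09, 6.14 and 5.86 with cyclopamine, and 12.15, 12.11 and 9.21 with vehicle. Its highest array in the SAG and cyclopamine groups was that of Ret, but SAG replicates 2 and 3 stood in the opposite order. Stmn2, a neuronal stathmin, followed the order of Ret on SAG arrays, with 11.57, 10.54, 9.98 and 7.07. It did not on cyclopamine arrays, with 12.12, 13.25 and 11.02. On vehicle arrays Stmn2 read 12.43, 12.38 and 11.93, lowest like Ret on replicate 3. It was highest of all on cyclopamine replicate 2, where Ret was low, and the glial marker S100b stayed between 4.17 and 4.62. The mean of 11 neuron and glia markers was 6.58 to 8.34 with SAG, 6.51 to 8.93 with cyclopamine and 7.46 to 9.09 with vehicle, and 0 of 11 passed in any contrast. Over all probe sets 0.73% passed with SAG, 5.12% with cyclopamine and 11.3% in SAG against cyclopamine. Cyclopamine replicate 1 had the highest marker mean of its group. Without it, 2 of 11 passed in cyclopamine against vehicle and 1 of 11 in SAG against cyclopamine. In the latter contrast 1843 of 22206 probe sets then passed. After subtraction of group means, Ret correlated with that list mean over the 10 arrays (r = 0.985, exact permutation p = 0.00231, adjusted 0.037 over 16 relations, and rho = 0.976, exact permutation p = 0.00347, adjusted 0.0555). Without the 2 arrays farthest from the median, r was 0.97. With the duct epithelium markers, r for Ret was 0.205. These relations were chosen after values had been seen, and the arrays share 1 normalization. The part of neurons in the Ret signal was not tested. Lhx1 in turn correlated with the duct epithelium list (r = 0.907, exact permutation p = 0.0139, adjusted 0.111, and rho = 0.915, exact permutation p = 0.015, adjusted 0.12), which did not pass the adjustment, and r was 0.838 without the 2 farthest arrays.

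**Figure D4:**
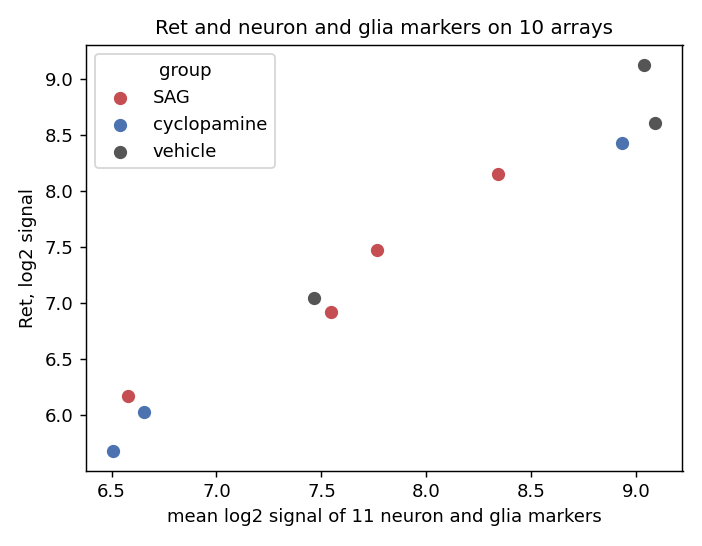
Ret log2 signal against the mean log2 signal of 11 neuron and glia markers, 1 point per array, by group. Arrays with high marker means also have high Ret in all 3 groups, and cyclopamine replicate 1 lies far from replicates 2 and 3.

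Gfra1, the GDNF co-receptor, read 9.19, 9.68, 9.50 and 9.66 with SAG, 10.62, 9.30 and 10.49 with cyclopamine, and 10.63, 10.19 and 9.65 with vehicle. The groups overlapped in every contrast and none passed. Its differences from vehicle were -0.65 ± 0.32 with SAG and -0.02 ± 0.34 with cyclopamine (adjusted p = 0.511 and 0.987), and SAG against cyclopamine gave -0.63 ± 0.32 (adjusted p = 0.275). The low cyclopamine value was replicate 2. Without that array Gfra1 was lower with SAG than with cyclopamine past the threshold (adjusted p = 0.0203). Gdnf, the ligand, had low signal, at the 25th percentile of all probe sets. It read 5.48, 5.65, 4.75 and 5.88 with SAG, 4.41, 4.66 and 5.15 with cyclopamine, and 5.33, 5.30 and 5.33 with vehicle. All 3 cyclopamine arrays lay below all vehicle arrays, but the difference of -0.58 ± 0.27 did not pass (adjusted p = 0.284). SAG against cyclopamine gave 0.70 ± 0.25 (adjusted p = 0.115), which passed when SAG replicate 3, the lowest SAG array, was left out (adjusted p = 0.017).

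Within the GDNF ligand and receptor family, Artn alone was called. Artn encodes artemin, the ligand of the Gfra3 and Ret complex that guides sympathetic axons. Its signal was 8.19, 8.48, 8.08 and 7.58 with SAG, 4.64, 4.32 and 4.62 with cyclopamine, and 7.12, 7.00 and 7.06 with vehicle. The 3 groups formed 3 separate levels. Artn rose with SAG by 1.02 ± 0.19, or 2.03-fold (limma adjusted p = 0.0436), and fell with cyclopamine by 2.53 on the log2 scale, 5.79-fold lower (adjusted p = 0.000121). The SAG call rested on most of the arrays: leaving out any single array other than SAG replicate 4 or cyclopamine replicate 2 ended the call (adjusted p 0.0591 to 0.209). The fall with cyclopamine and the SAG against cyclopamine difference (3.55 ± 0.19, adjusted p = 2.81e-06) held in every alternative run. Of the 8 measured family members 1 rose with SAG and 1 fell with cyclopamine, and the other 7 did not pass in either contrast. Over all probe sets 0.45% rose with SAG and 2.95% fell with cyclopamine. Gfra3, the co-receptor for Artn, gave -1.48 ± 0.69 with SAG and -2.06 ± 0.73 with cyclopamine (adjusted p = 0.48 and 0.152). Gfra2, the neurturin co-receptor, gave 0.19 with SAG and -0.42 with cyclopamine (adjusted p = 0.843 and 0.438). In SAG against cyclopamine 1 of 8 passed, beside 11.3% of all probe sets (5.42% higher and 5.92% lower). That count was 2 without SAG replicate 2 or 3 or cyclopamine replicate 2. Gfra3 was called with cyclopamine when vehicle replicate 3 was left out (adjusted p = 0.0496). It was high on the same vehicle and cyclopamine arrays as Ret (7.79 and 8.27 on vehicle replicates 1 and 2, against 5.65 on vehicle replicate 3).

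Of 11 measured genes known to respond to Ret or related kinase signalling, 0 passed with SAG, 1 rose with cyclopamine and 4 fell in SAG against cyclopamine. The shares of all probe sets were 0.73% passing with SAG, 2.17% higher with cyclopamine and 5.92% lower in SAG against cyclopamine. Dusp6, a phosphatase that limits ERK signalling, read 12.03, 11.19, 11.78 and 11.56 with SAG, 13.36, 12.75 and 13.65 with cyclopamine, and 11.86, 11.77 and 11.81 with vehicle. It rose with cyclopamine by 1.44 ± 0.25 (limma adjusted p = 0.00908). In SAG against cyclopamine, Dusp6 gave -1.62 ± 0.23, Met, the hepatocyte growth factor receptor, -1.59 ± 0.23, and Etv4, an ETS factor downstream of Ret, -1.97 ± 0.44 (adjusted p = 0.00118, 0.00131 and 0.0146). Etv5, the partner of Etv4, gave -1.02 ± 0.29 (adjusted p = 0.0491) with overlapping arrays. Its call ended when any single array other than SAG replicate 1 or cyclopamine replicate 2 was left out (adjusted p 0.068 to 0.171), and that of Etv4 without cyclopamine replicate 3 (adjusted p = 0.0554). With SAG, Met gave -0.96 ± 0.23 (adjusted p = 0.113, and 0.0311 without cyclopamine replicate 2) and Spry1, a feedback inhibitor, 0.95 ± 0.31 (adjusted p = 0.27). With cyclopamine, Etv4 gave 1.44 ± 0.47 (adjusted p = 0.117, and 0.00327 without its replicate 2) and Met 0.63 ± 0.25 (adjusted p = 0.196). Without cyclopamine replicate 2, the counts against vehicle were 1 with SAG and 4 with cyclopamine, and without cyclopamine replicate 3, 2 fell in SAG against cyclopamine. Wnt11, a ligand of the ureteric tip, gave 0.29 with SAG and -0.01 with cyclopamine and did not pass.

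Of 17 measured regulators that act on Gdnf in the kidney field, 1 rose with SAG, 2 fell with cyclopamine, and in SAG against cyclopamine 4 rose and 3 fell. Among all probe sets 0.45% rose with SAG, 2.95% fell with cyclopamine, and in SAG against cyclopamine 5.42% rose and 5.92% fell. Foxc2, a forkhead factor of the mesenchyme, rose with SAG by 1.68 ± 0.23 (limma adjusted p = 0.0106), a call that ended without vehicle replicate 2 (adjusted p = 0.0676). Bmp4, which limits budding, fell by 2.07 and Robo2, the SLIT receptor that restricts the Gdnf domain, by 1.65 on the log2 scale with cyclopamine (adjusted p = 0.00669 and 0.00965). The Robo2 call ended with unmoderated variances (adjusted p = 0.0554). With SAG, Npnt gave -1.10 ± 0.29 and Six4, a homeobox factor, -0.87 ± 0.24 (adjusted p = 0.154 and 0.17). In SAG against cyclopamine, Foxc2, Robo2 and Bmp4 rose (2.48, 2.40 and 2.38), and Npnt, an epithelial ligand of integrin alpha 8, fell (-2.17). Without cyclopamine replicate 2 the counts were 3 with SAG, 6 with cyclopamine and 10 in SAG against cyclopamine. The mesenchyme marker mean given above moved in the same direction as Bmp4 and Robo2, and its part in them was not tested.

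**Figure D5:**
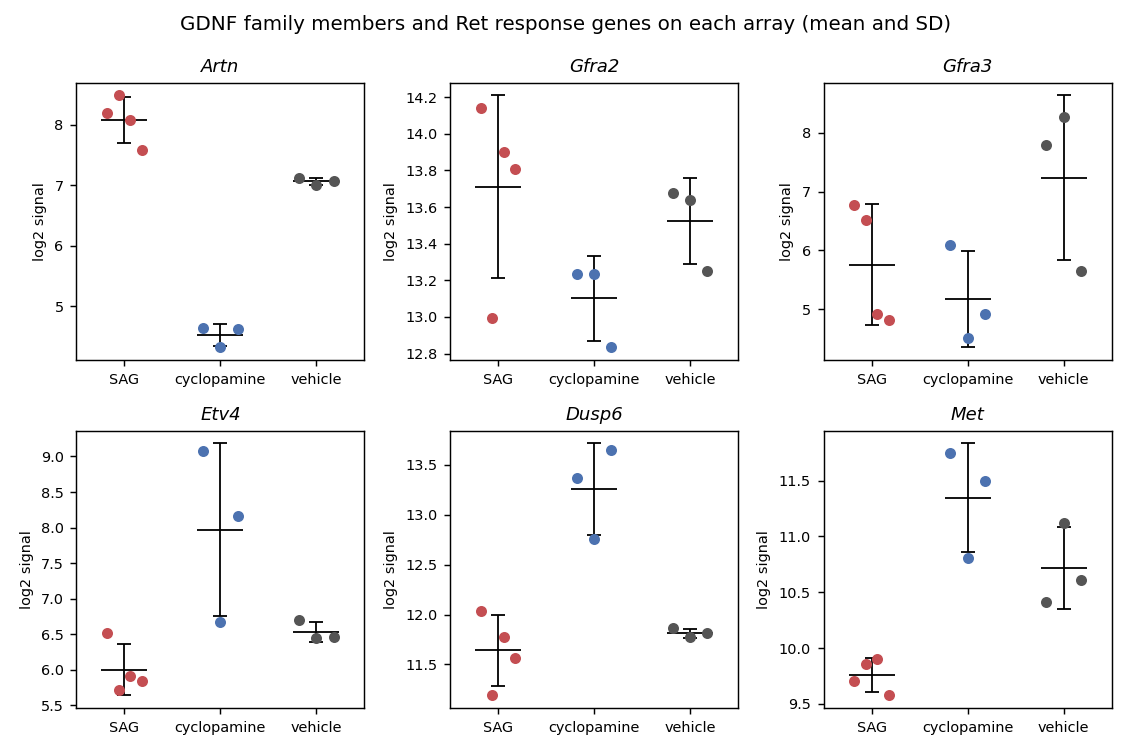
Log2 signal of Artn, Gfra2, Gfra3, Etv4, Dusp6 and Met on each array (points), with the group mean and SD (bars). Artn forms 3 separate levels, highest with SAG and lowest with cyclopamine. Dusp6 is higher on every cyclopamine array than on any SAG or vehicle array.

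Of 12 measured other regulators of the duct epithelium, all had a negative difference with SAG (median -0.82, beside 0.01 over all probe sets), and 0 of 12 passed. Tfap2b, an AP-2 factor, and Tfap2a had the smallest p (-1.51 ± 0.34 and -1.25 ± 0.28, both with an adjusted p of 0.0818), and Tfap2b passed without cyclopamine replicate 2 (adjusted p = 0.0372). With cyclopamine 4 rose: Tfap2a, an epithelial AP-2 factor (1.58 ± 0.30, limma adjusted p = 0.0139), Ehf, an ETS factor (1.81 ± 0.38, adjusted p = 0.0229), Grhl2, a grainyhead factor that supports epithelial junctions (1.38 ± 0.33, adjusted p = 0.0401), and Wnt9b, a duct ligand (0.82 ± 0.20, adjusted p = 0.0431). In SAG against cyclopamine 8 of 12 fell, led by Tfap2a (-2.83), Ehf (-3.38), Grhl2 (-2.72) and Tfap2b (-2.69). The shares of all probe sets were 0.73% passing with SAG, 2.17% higher with cyclopamine and 5.92% lower in SAG against cyclopamine. Each of the 4 calls with cyclopamine was lost on leaving out single arrays: Tfap2a without vehicle replicate 1 or 3 or cyclopamine replicate 3, and Ehf also without cyclopamine replicate 1. For Grhl2 the arrays whose removal ended the call were replicates 1 and 3 of each group, and for Wnt9b they were replicates 1 and 2 of vehicle and of cyclopamine and replicates 3 and 4 of SAG. The count of 4 was 7 without cyclopamine replicate 2, 2 without SAG replicate 3, 1 without vehicle replicate 3 or cyclopamine replicate 1 or 3, and 0 without vehicle replicate 1. Of the duct epithelium markers themselves, 2 of 16 fell with SAG (Cldn7 and Esrp1), 6 of 16 rose with cyclopamine (among them the cadherin Cdh16, 2.24, Prom1, 1.33, and the claudins Cldn4, 2.37, and Cldn3, 1.81) and 14 of 16 fell in SAG against cyclopamine. Without single arrays these counts ran from 0 (any vehicle array or SAG replicate 1, 3 or 4) to 5 (cyclopamine replicate 2) with SAG, and from 2 (vehicle replicate 1 or 3) to 10 (cyclopamine replicate 2) with cyclopamine. They were 3 with cyclopamine without SAG replicate 3 or 4 or cyclopamine replicate 1 or 3, and 1 with SAG without cyclopamine replicate 1.

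Among 23 paralogs of the members (other Pax, Lhx, Sall, Emx and Gata genes), 0 passed with SAG and 1 fell with cyclopamine. The gene that fell was Gata2, a zinc finger factor (-1.98 ± 0.28, limma adjusted p = 0.00406). Over all probe sets 0.73% passed with SAG and 2.95% fell with cyclopamine. Next by p were Lhx9 (0.60) and Gata1 (0.22) with SAG, and Pax1 (0.39) and Pax6 (0.41) with cyclopamine, none of which passed. In SAG against cyclopamine, Gata2 (2.23) and Lhx9 (0.96) rose, and no other Pax, Sall or Emx gene passed. These 2 of 23 stood beside 11.3% of all probe sets passing in that contrast (5.42% higher). The Lhx9 call ended when any of vehicle replicates 1 and 2, SAG replicate 2 or any cyclopamine array was left out (adjusted p 0.05 to 0.103).

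By Pearson correlation of log2 signals over all 10 arrays, among 2716 genes with an SD of at least 0.5, Tox3 was the gene most like both Pax2 (r = 0.993) and Pax8 (r = 0.99), and Pax2 and Pax8 were among the closest to each other (r = 0.983). Emx2 was most like Limch1 (0.983), Lhx1 most like Scnn1b (0.942), and Sall1 most like Ttr (0.953). Ret was most like Tubb3 (0.993), Ina (0.979) and Nefl (0.976), a tubulin and 2 intermediate filament genes of neurons. Gfra1 was most like Calml3 (0.964), and Gdnf reached no more than 0.841 (Lypd6). These values mix differences between the groups with those inside them and carry no test.

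Annotated promoter windows (250 bases before to 50 after a start, RefSeq GRCm38.p6) were available for 7 of the 8 measured members, 12 windows in all. The GLI site GACCACCCA and its core GACCACC were found on either strand in 0 of 12, beside 0.253% and 2.8% of all 32851 windows. The GATA letters AGATAA occurred in 1 window (Gdnf; 11.2% of all), the homeobox letters TAATTA in 1 (Emx2; 5.29% of all) and GTTAAT in 0 (7.1% of all). CCAAT and CCGCCC, added after the windows were seen, each occurred in 6 of 12 (37.4% and 35.7% of all). In the printed sequences, Pax8 has 1 of each, Emx2 has a CCAAT box and 2 overlapping GC boxes, and Pax2 has none. A match here describes letters only and says nothing about binding.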

How the data were processed

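RNA of 10 cultures was labelled with biotin and hybridised to Affymetrix arrays, per the labels' protocols. The authors deposited 1 table of normalized log2 values for 22206 probe sets; the log2 base was inferred from their range (2.95 to 18.7), while normalization, software and genome build have no stated source here. A platform annotation named 19572 probe sets with 1 gene symbol and 0 with several, and 2634 are unnamed here; 55 genes had several probe sets and were represented by the brightest. Signals near the low end are compressed, so a fold change there understates the change. The number of arrays limits precision.

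Group means were fitted to all 10 arrays with limma 3.58.1 in R 4.3.3 and moderated by eBayes (7 residual and 3.7 prior degrees of freedom). Two-sided p-values were adjusted by Benjamini-Hochberg over every probe set, with a threshold of 0.05. Errors beside differences are moderated standard errors, and no filter was applied. Exact permutation tested the members' offsets from the duct epithelium markers and the within-group correlations with list means. The smallest two-sided p for 4 arrays against 3 is 0.0286. The scripts were tested on simulated data.

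The members and gene lists were chosen with earlier results of these data known. Genes named were all members, Gli1, Ptch1 and Hhip as a check, up to 4 genes per list and contrast that passed without overlap (by smallest p; where fewer than 2 passed, the 2 smallest p as values), and for each member its 3 most correlated genes, of which only some are printed. Marker lists of other cell types are given mainly as counts and ranges, not by every gene that rule selects. Etv5, Wnt11 and S100b were also named after values were seen, and Hsd3b1 and Cyp17a1 are named outside that rule. Promoter sequences are from RefSeq, GRCm38.p6.

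Groups share replicate numbers 1 to 3. Correlations of same-numbered arrays' deviations from group means ran from -0.193 to 0.237, so the numbers were not taken to pair the cultures. Alternatives were a further quantile normalization, median centring, dropping the dimmest 25% of probe sets, a fit of just 2 groups, array weights, an intensity-dependent prior, the replicate block, unmoderated variances, thresholds of 0.01 and 0.1, and leaving out each array; removing both arrays that stood apart was added after the data were seen.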

Additional observations from a re-analysis of the deposited data

Results flagged for a closer look

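Of 77 genes examined for a single array far from the rest of the SAG group of 4, 4 were set apart. In each case the array was SAG replicate 1. For genes chosen without regard to their values, chance sets apart about 1 in 20 such groups. Most of the 77 were named by their p-values, so that rate does not apply to them as a set. Hsd3b1, Cyp17a1 and Etv5 were examined outside the rule for naming genes. With all 4 on 1 array, the cases are also not independent, and whether chance set them apart was not tested. Hsd3b1 (10.04 on the log2 scale), Cyp17a1 (8.03) and Cyp11a1 (9.04), enzymes of steroid synthesis in gonad and adrenal, were high on SAG replicate 1. Outside the SAG group, vehicle replicate 3 was also above its group for Cyp11a1 (8.78, against 6.54 and 6.75) and Hsd3b1 (7.95, against 5.59 and 5.87). Within the SAG group Etv5, an ETS factor of the Ret response list, was also highest on SAG replicate 1 (13.6). No member was set apart.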

How the results depend on the processing

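The calls of Pax2, Pax8 and Emx2 in SAG against cyclopamine and of Pax2 and Pax8 with cyclopamine held in all 20 alternative fits. With SAG against vehicle, where 0 members passed, the count was 2 when only the 2 groups compared were fitted, 2 with array weights, 1 with an intensity-dependent prior, 1 at a threshold of 0.1, 2 without SAG replicate 1 and cyclopamine replicate 2 together, and 0 to 2 without single arrays. Without single arrays, the count was 2 to 3 with cyclopamine and 3 to 5 in SAG against cyclopamine, with 5 reached without cyclopamine replicate 2. Over all probe sets, calls with SAG numbered 162 and ran from 45 (without vehicle replicate 2) to 339 (without cyclopamine replicate 2) without single arrays, and were 9 with unmoderated variances and 316 at a threshold of 0.1. With cyclopamine, 1136 ranged from 485 to 1471, and in SAG against cyclopamine 2518 ranged from 1843 to 2855. Unmoderated variances ended 12 calls of named genes (adjusted p 0.0554 to 0.208): Artn, Foxc2, Gli1 and Ptch1 with SAG, Robo2, Tfap2a, Ehf, Grhl2 and Wnt9b with cyclopamine, and Etv4, Etv5 and Lhx9 in SAG against cyclopamine. A fit of just 2 groups ended 5 of these (Ehf, Grhl2, Wnt9b, Etv5 and Lhx9, adjusted p 0.0693 to 0.104). The cause of these differences was not tested.

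Several small differences changed sign. Sall1 with SAG was 0.034 after median centring and 0.00505 without SAG replicate 1, also with cyclopamine replicate 2 left out (-0.11 to 0.00505 without single arrays). Gdnf with SAG was -0.0289 with the replicate block and without SAG replicate 4 (-0.0289 to 0.35 without single arrays). Gfra1 with cyclopamine was 0.00642 after quantile normalization, 0.0217 after centring, 0.17 with array weights, 0.22 without vehicle replicate 1, 0.40 without cyclopamine replicate 2 and 0.40 without both arrays (-0.27 to 0.40 without single arrays). Ret in SAG against cyclopamine was -0.04655 without cyclopamine replicate 3 and -0.195 without both (-0.04655 to 1.33 without single arrays). Without the 2 farthest arrays, within-group r changed sign for Sall1 with neuron markers (-0.00741), Pax2 with epithelium (0.185) and Ret with epithelium (-0.0609). No difference relative to the epithelium markers reversed when their median or Epcam replaced the mean.

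The replicate numbers were not taken to pair the samples, a point that correlations of so few arrays cannot settle. With the replicate block the members' counts stayed at 0, 2 and 3, and all-probe-set calls were 32 with SAG, 653 with cyclopamine and 1613 in SAG against cyclopamine. The block took Gli1 (adjusted p = 0.181), Ptch1 (0.0785), Artn (0.0632) and Foxc2 (0.0558) with SAG, Ehf (0.0563), Grhl2 (0.0724) and Wnt9b (0.122) with cyclopamine, and Etv5 (0.065) in SAG against cyclopamine above the threshold. Among duct epithelium markers it gave 0 calls in place of 2 with SAG (Cldn7 and Esrp1) and 3 in place of 6 with cyclopamine, and among nephron markers a count of 1 in place of 3 with cyclopamine.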
